A study of Mus musculus with 6 samples.

Results

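The Dusp, Sprouty and Spred genes encode feedback inhibitors of growth factor signaling, and their transcripts were followed here in gastric epithelial cells treated with TGF-β1. The group was set by name as Dusp1, Dusp2, Dusp4, Dusp5, Dusp6, Dusp7, Spry1, Spry2, Spry4 and Spred1, and every array probe paired with one of these symbols was taken. This gave 15 probes of 25697 on the array, for 9 of the 10 genes. No probe was paired with Dusp5, so its transcript was not analysed here. The cells were GIF-14, an immortalized line from the stomach epithelium of fetal mice, with a Runx3-/-;p53-/- genotype in treated and untreated cells alike. The untreated group was 3 cultures of these cells, and the TGF-β1 group was 3 cultures that received recombinant TGF-β1 at 2.5 ng/ml for 24 h. Both groups came from the epithelial fraction of the line, before epithelial-mesenchymal transition (EMT). A single line was used, and no cells with intact Runx3 or p53 were among the arrays, so the values hold for this line only.

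When a ligand binds a receptor tyrosine kinase such as Egfr, the signal runs through Ras, Raf and MEK to the kinase ERK. The ERK signal also switches on the genes of its own inhibitors. Dusp proteins are dual-specificity phosphatases that remove the phosphates from MAP kinases: Dusp1, Dusp2, Dusp4 and Dusp5 act in the nucleus, while Dusp6 and Dusp7 act in the cytoplasm and prefer ERK. Sprouty proteins and Spred1 act further upstream, between the receptor and Raf. Transcripts of these genes are therefore often read as a gauge of ERK activity, and the comparison asks how this layer stood in cells in which TGF-β1 was studied for its link to EGFR and Ras signaling.

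The DNA just upstream of 3 of these genes is shown because their transcripts behaved differently: Dusp2 rose, Dusp6 fell, and Dusp1 did not pass the test. Each sequence is the 250 bases before the annotated start of the gene, read 5′ to 3′ on the strand of the gene, from RefSeq (GRCm38.p6). They are chr2:127335909-127336158 (plus strand) for Dusp2, chr10:99262981-99263230 (plus strand) for Dusp6 and chr17:26508473-26508722 (minus strand) for Dusp1. Capitals mark every match, on either strand, to 4 motifs: the AP-1 site TGANTCA, the cyclic AMP response element TGACGTCA, the Smad box CAGAC and the ETS core CGGAA.
Dusp2: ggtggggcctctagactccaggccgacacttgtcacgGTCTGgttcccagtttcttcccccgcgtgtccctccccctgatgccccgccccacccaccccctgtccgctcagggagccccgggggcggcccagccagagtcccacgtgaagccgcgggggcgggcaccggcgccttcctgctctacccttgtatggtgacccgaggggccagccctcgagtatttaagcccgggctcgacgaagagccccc
Dusp6: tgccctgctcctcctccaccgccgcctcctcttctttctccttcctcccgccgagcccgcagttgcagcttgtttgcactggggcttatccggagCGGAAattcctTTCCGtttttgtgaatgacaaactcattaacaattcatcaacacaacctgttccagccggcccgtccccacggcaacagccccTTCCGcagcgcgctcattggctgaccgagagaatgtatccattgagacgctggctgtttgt
Dusp1: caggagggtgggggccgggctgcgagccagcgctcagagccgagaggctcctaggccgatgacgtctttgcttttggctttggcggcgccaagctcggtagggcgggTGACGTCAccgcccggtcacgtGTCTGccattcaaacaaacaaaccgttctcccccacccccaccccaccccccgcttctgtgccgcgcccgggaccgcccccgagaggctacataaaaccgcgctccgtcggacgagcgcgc
The Dusp6 sequence held 3 ETS cores, the core letters bound by Ets factors, which are among the nuclear targets of ERK. They began 155, 144 and 61 bases before the start. Among 32851 RefSeq promoters of the same length, 25.2% held at least 1 ETS core and 2.12% held 3 or more. The Dusp2 sequence held 1 Smad box, 213 bases before the start, and no other match. The Dusp1 sequence held 1 cyclic AMP response element, 143 bases before the start, and 1 Smad box, 121 bases before it. The Smad box occurred in 42.2% of all promoters, the cyclic AMP response element in 1.55% and the AP-1 site in 6.75%. None of the matches in these 3 sequences overlapped another. The same window was searched for 5 more of the genes: Dusp5 and Spred1 held 1 ETS core each, and Dusp7, Spry1 and Spry2 held no match. Dusp4 and Spry4 were not searched, and whether a match bears on the change of its gene was not tested. A match is a run of letters, not a measured binding site.

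Signals were the mean brightness of the beads of a probe, quantile-normalized and given as log2 values. A probe counted as above background on an array when its detection p was under 0.05, and between 11381 and 11797 probes per array did so. A probe was tested with limma if either group had it above background on all 3 of its arrays, and its p was adjusted over all 11189 probes tested, with a threshold of 0.05. Averaged over its probes, the raw signal of untreated arrays 1 to 3 was 519, 518 and 435, and that of TGF-β1 arrays 1 to 3 was 406, 439 and 519. Of 7 tested textbook TGF-β targets, 6 rose and 0 fell, led by Ccn2 (log2 fold change 2.13, adjusted p = 6.86e-07), Junb (1.71, adjusted p = 4.44e-06) and Pmepa1 (1.32, adjusted p = 1.47e-04), while Tgif1 did not pass. The Runx3 probe was above background on 0 of 6 arrays, although the place of the probe relative to the deleted part is not known here. Of 15 epithelial markers with a probe, 14 were above background on at least 1 array and Sox2 on none. Of the 13 tested, 2 rose and 7 fell. Their median log2 fold change was -0.43. The summed signal of the list ran from 47830 to 51790 on untreated arrays and from 47840 to 53880 on TGF-β1 arrays. Bright markers moved in opposite directions within this sum, with log2 fold changes of 2.90 for Cldn4 and -1.59 for Krt19. The sum therefore does not show that the single markers were steady. Of 8 fibroblast markers, 7 were above background on no array, and Col1a1, above background on the TGF-β1 arrays alone, was at least 2.13-fold higher there. The limma adjusted p of its fitted log2 fold change was 5.20e-05. In bulk RNA, fewer cells with a transcript and less of it per cell cannot be told apart.

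Of the 15 probes, 11 were tested, covering 7 genes. The other 4 were 1 of the 3 Dusp4 probes and the probes of Spry1 and Spry2. Of the 11, 5 rose, 1 fell and 5 did not pass. Over all probes tested, 32.3% passed, 16.4% higher and 15.9% lower. With the brightest tested probe for each gene, Dusp2, Dusp4 and Dusp7 rose, Dusp6 fell, and Dusp1, Spry4 and Spred1 did not pass. Of all 7725 genes tested this way, 34.2% passed, 16.4% higher and 17.8% lower. The groups did not overlap in 7 of the 11 probes, against 45.9% of all probes tested. The median log2 fold change was 0.04 over the 11 probes and 0.04 over all probes tested. The Dusp2 probes entered the test through the TGF-β1 arrays alone and the Spry4 probe through the untreated arrays alone, so these counts rest in part on the filter. The plot of signals on each array shows the members side by side.

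**Figure D1:**
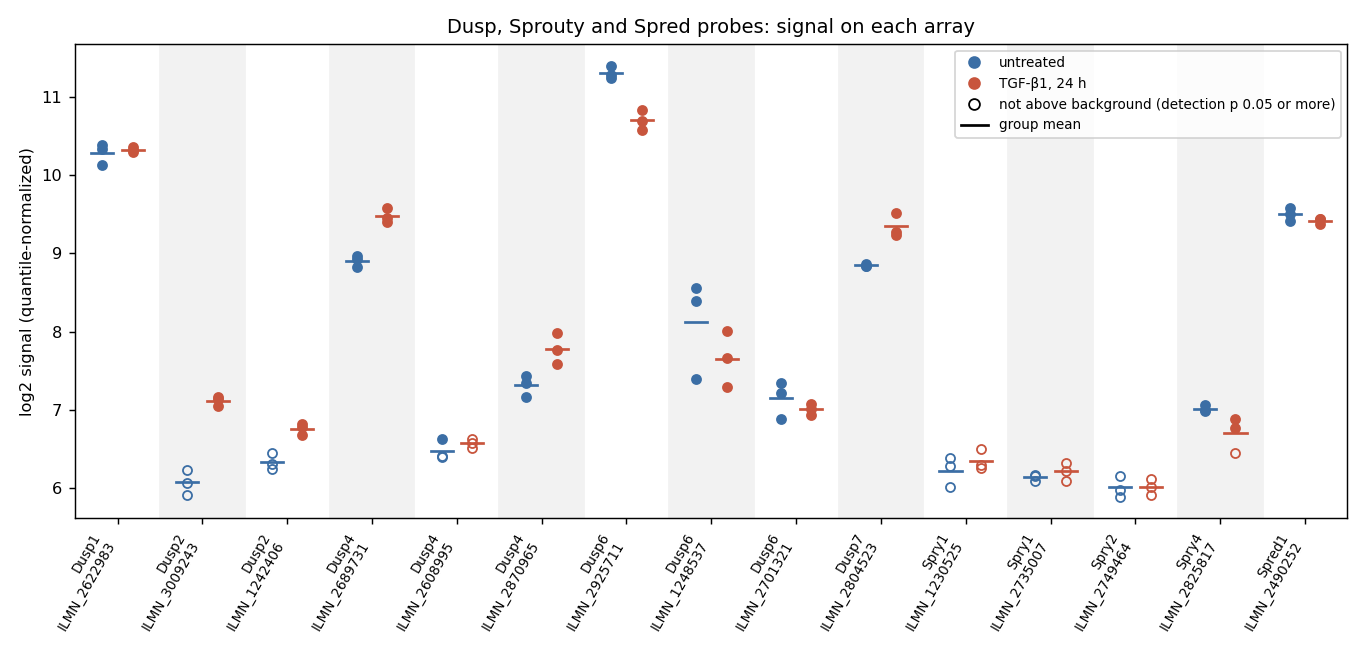
Log2 signal (vertical axis, quantile-normalized) of each of the 15 probes on the 3 untreated arrays (blue) and the 3 TGF-β1 arrays (red), with bars at group means and open circles where the probe was not above background on that array. Both Dusp2 probes are open circles on the untreated arrays and filled on the TGF-β1 arrays, and the first Dusp6 probe lies between 11.24 and 11.40 in untreated cells and between 10.58 and 10.83 after TGF-β1.

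Dusp1 encodes an inducible nuclear phosphatase that acts on p38 and JNK as well as ERK. Its probe (ILMN_2622983) read 10.34, 10.39 and 10.13 in untreated cells and 10.36, 10.30 and 10.32 after TGF-β1. The groups overlapped, and untreated array 3 was the lowest of the 6. The log2 fold change was 0.04 (SE 0.093, limma adjusted p = 0.772), with a 95% confidence interval from -0.17 to 0.26, or 0.888- to 1.20-fold. The value was -0.03 without untreated replicate 3 (adjusted p = 0.787).

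Dusp2 encodes an inducible nuclear phosphatase best known from activated lymphoid and myeloid cells. Its first probe (ILMN_3009243) read 5.92, 6.24 and 6.07 in untreated cells and 7.17, 7.14 and 7.05 after TGF-β1. No untreated array and 3 of 3 TGF-β1 arrays had it above background, and the groups were well apart. Set against the lowest detected signal of each untreated array, TGF-β1 arrays had at least 1.41-fold higher Dusp2. The limma adjusted p of 1.20e-04 belongs to the fitted log2 fold change, which uses the untreated readings below background, and not to this bound. The second probe (ILMN_1242406) read 6.45, 6.30 and 6.25 in untreated cells and 6.82, 6.78 and 6.68 after TGF-β1. It too was above background on the TGF-β1 arrays alone, without overlap, and was at least 1.10-fold higher. The limma adjusted p of its fitted log2 fold change was 0.00801. Both probes thus rose from a level that the arrays did not set apart from background. The fitted log2 fold changes, 1.05 and 0.42, depend on the background: with a background correction (neqc) they were 1.80 and 0.83. Immune cells also express Dusp2. Of 6 immune markers with a probe, 4 were above background on no array: Cd79a, Itgam, Lyz2 and Ptprc. Of the others 1 was tested, Cd14, which was above background on 3 of 3 arrays of each group. Its mean log2 signal was 9.01 in untreated cells and 9.11 after TGF-β1, and it did not pass (limma adjusted p = 0.472). The summed signal of the list ran from 890 to 961 on untreated arrays and from 925 to 1017 on TGF-β1 arrays. The cell source of Dusp2 was not tested.

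Dusp4 encodes a nuclear phosphatase of ERK, JNK and p38. Its brightest probe (ILMN_2689731) read 8.82, 8.93 and 8.96 in untreated cells and 9.57, 9.40 and 9.46 after TGF-β1. All 3 treated arrays lay above all 3 untreated ones. The log2 fold change was 0.57 (SE 0.087, limma adjusted p = 0.00149), or 1.49-fold with a 95% confidence interval from 1.30 to 1.71. The second tested probe (ILMN_2870965) read 7.35, 7.16 and 7.44 in untreated cells and 7.98, 7.77 and 7.59 after TGF-β1. These groups did not overlap either, but TGF-β1 array 3 lay close to untreated array 3. The log2 fold change was 0.46 (SE 0.12, adjusted p = 0.0208), or 0.69 with neqc. This second call ended without untreated replicate 1 (adjusted p = 0.0530) or 2 (0.0841) and without TGF-β1 replicate 1 (0.0685) or 2 (0.0670), whereas that of the brightest probe held under each array left out. The third Dusp4 probe (ILMN_2608995) was above background on 1 untreated array only, read between 6.39 and 6.63 over the 6 arrays, and was not tested.

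Dusp6 encodes the cytoplasmic phosphatase most selective for ERK and is among the transcripts most often used to follow ERK activity. Its brightest probe (ILMN_2925711) read 11.28, 11.40 and 11.24 in untreated cells and 10.70, 10.58 and 10.83 after TGF-β1. Every treated array lay below every untreated one. The group means were 11.31 ± 0.083 and 10.70 ± 0.13 (SD, n = 3 each), and the log2 fold change was -0.61 (SE 0.097, limma adjusted p = 0.00194), or 1.52-fold lower. The 95% confidence interval of the log2 fold change ran from -0.83 to -0.38. The call held under each of the 6 arrays left out.

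The other Dusp6 probes did not pass. One (ILMN_1248537) read 8.56, 8.39 and 7.40 in untreated cells and 7.29, 7.66 and 8.005 after TGF-β1, so that the groups overlapped. Its log2 fold change was -0.46 (SE 0.30, limma adjusted p = 0.279), with a 95% confidence interval from -1.15 to 0.22. Its spread between replicates, a pooled SD of 0.51, was larger than that of 97.8% of the tested probes. Its lowest readings fell on untreated array 3 and TGF-β1 array 1, which also had the lower mean raw signals of their groups, 435 and 406. With the mean raw signal of each array in the fit the log2 fold change was -0.14 (adjusted p = 0.395), and without untreated replicate 3 it was -0.82 (adjusted p = 0.0116), which passes. The last probe (ILMN_2701321) read 6.88, 7.22 and 7.34 in untreated cells and 7.01, 6.93 and 7.08 after TGF-β1, again with overlap. Its log2 fold change was -0.14 (SE 0.13, adjusted p = 0.422, 95% confidence interval from -0.43 to 0.14), or -0.25 with neqc. All 3 Dusp6 probes had negative log2 fold changes, and the intervals of the other 2 include 0. The value of the first probe lies inside the interval of the second and outside that of the last. With the 3 probes averaged before the fit, Dusp6 had a log2 fold change of -0.40 (adjusted p = 0.0303).

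Dusp7 encodes the closest relative of Dusp6 in this group, likewise a cytoplasmic phosphatase of ERK. Its probe (ILMN_2804523) read 8.87, 8.84 and 8.84 in untreated cells and 9.28, 9.51 and 9.24 after TGF-β1. The untreated arrays lay close together, and all treated arrays were above them. The log2 fold change was 0.49 (SE 0.095, limma adjusted p = 0.00503), or 1.41-fold with a 95% confidence interval from 1.21 to 1.64. The 2 cytoplasmic ERK phosphatases therefore changed in opposite directions on the same arrays. The call for Dusp7 held under each of the 6 arrays left out.

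**Figure D2:**
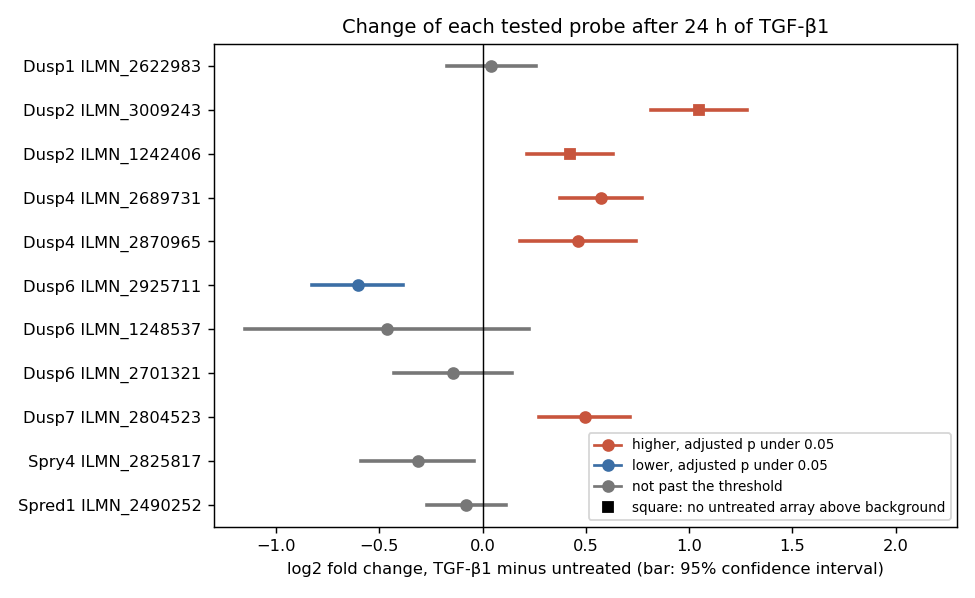
Log2 fold change of each of the 11 tested probes, TGF-β1 minus untreated (horizontal axis), with its 95% confidence interval as a bar, red for probes that rose, blue for the 1 that fell and gray for those that did not pass. Squares mark the 2 Dusp2 probes, which no untreated array measured above background, and the widest interval, from -1.15 to 0.22, belongs to the second Dusp6 probe.

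Sprouty proteins bind adaptors and Raf and damp the path from receptor to ERK. Of the 3 Sprouty genes, Spry1 and Spry2 gave no measurable signal: both Spry1 probes (ILMN_1230525 and ILMN_2735007) and the Spry2 probe (ILMN_2749464) were above background on 0 of 6 arrays. The Spry1 probes read between 6.01 and 6.50 and the Spry2 probe between 5.89 and 6.16, and no change can be given for either gene. Spry4 was measured by 1 probe (ILMN_2825817), which read 7.00, 7.06 and 6.98 in untreated cells and 6.45, 6.89 and 6.77 after TGF-β1. The treated arrays all lay below the untreated ones, and TGF-β1 array 1 was not above background. The log2 fold change was -0.31 (SE 0.12, limma adjusted p = 0.0783) and did not pass the threshold, although the unadjusted 95% confidence interval, from -0.59 to -0.04, lies below 0. Without TGF-β1 replicate 1 the value was -0.19 (adjusted p = 0.208), and with neqc it was -0.66 (adjusted p = 0.0702).

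Spred1 is a membrane protein that brings the Ras inhibitor neurofibromin to Ras. Its probe (ILMN_2490252) read 9.51, 9.58 and 9.41 in untreated cells and 9.37, 9.44 and 9.44 after TGF-β1. The groups overlapped. The log2 fold change was -0.08 (SE 0.084, limma adjusted p = 0.511), and the 95% confidence interval, from -0.27 to 0.11, leaves room for a change between 0.829- and 1.08-fold. Its replicates were among the closest of the group, with a pooled SD of 0.066 against a median of 0.12 over all tested probes.

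By role, the nuclear phosphatases Dusp2 and Dusp4 rose, Dusp1 did not pass, the cytoplasmic ERK phosphatases split into Dusp7 higher and Dusp6 lower, and neither Spry4 nor Spred1 passed. The changes of Dusp4 and Dusp7 were under 1.5-fold, so that a rule requiring at least 1.5-fold kept only Dusp2 and Dusp6. Dusp2, tested through the TGF-β1 arrays alone, met that rule on its fitted value, while its bound of 1.41-fold did not reach it. The plot of values under other processing shows the direction of each probe: only Dusp1, which never passed, changed sign.

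**Figure D3:**
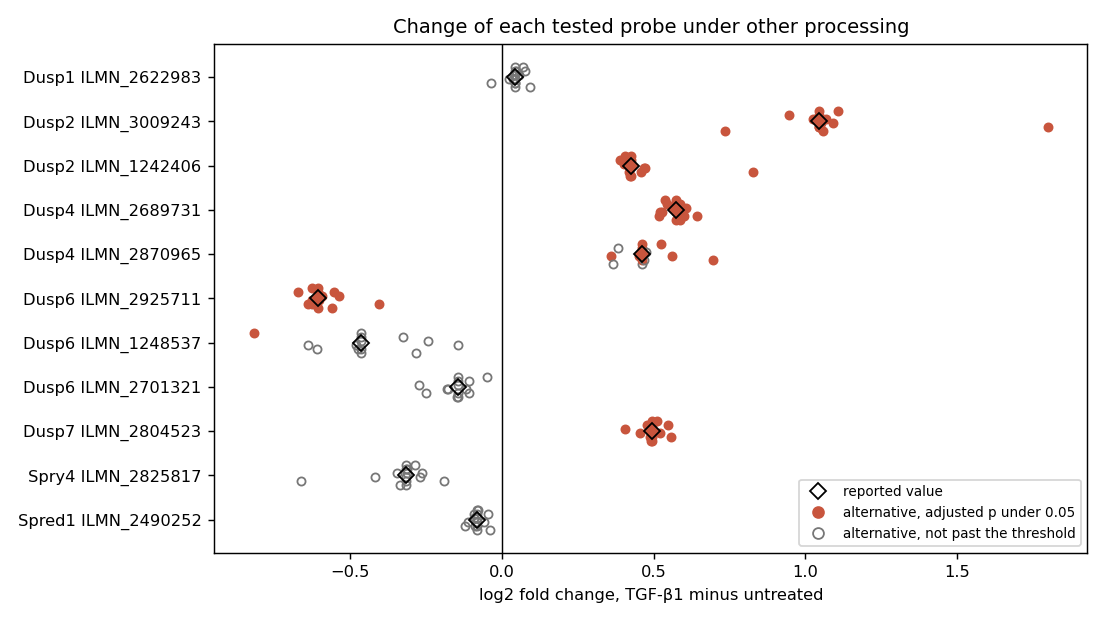
Log2 fold change (horizontal axis) of the 11 tested probes as reported (diamonds) and under each alternative that changes the values or the p (circles), red where the adjusted p was under 0.05. The rule requiring at least 1.5-fold is not drawn because it leaves the value as it is. Every Dusp7 circle lies between 0.41 and 0.56, and the brightest Dusp6 probe itself lies between -0.67 and -0.54. The circle at -0.40 in its row is the mean of the tested Dusp6 probes. The second Dusp6 probe spreads from -0.82 to -0.14.

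The list for the path from receptor to ERK had 11 tested genes of 27 listed (15 with a probe), of which 3 rose and 0 fell. Their median log2 fold change was 0.08 against 0.03 over all genes tested. Besides kinases, adaptors and Ras proteins, the list holds inhibitors of Ras, so its counts and median are not those of activating genes alone. Egfr, the EGF receptor, rose by 1.48 on the log2 scale (SE 0.11, limma adjusted p = 2.15e-05), or by 1.15 with its probes averaged (adjusted p = 3.06e-05). Map2k2, one of the MEK kinases that activate ERK, rose by 0.40 (adjusted p = 0.0117), or by 0.22 with its probes averaged (adjusted p = 0.0489). Ptpn11, a phosphatase that promotes Ras activation, rose by 0.31 (adjusted p = 0.0213), a call that ended without untreated replicate 2 (0.0843), TGF-β1 replicate 2 (0.0810) or TGF-β1 replicate 3 (0.0546).

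Transcripts other than the feedback inhibitors that ERK is known to switch on had 14 tested genes of 22, of which 5 rose and 2 fell, with a median log2 fold change of 0.14. Ier3, an early response gene, rose (log2 fold change 1.04, limma adjusted p = 1.58e-04), as did the growth regulator Myc (0.89, adjusted p = 0.00218) and the Ets factor Etv4 (0.64, adjusted p = 0.00221), which changed by 1.11 with neqc. Etv4 is controlled much like Dusp6 in FGF signaling, and on these arrays Etv4 was higher and Dusp6 lower. Zfp36, which destabilizes mRNAs of early response genes, had a log2 fold change of -0.44 (adjusted p = 0.0234), and Hbegf, a ligand of Egfr, one of -0.34 (adjusted p = 0.0178). The call for Zfp36 ended when untreated replicate 1 (0.0734), untreated replicate 3 (0.0525), TGF-β1 replicate 2 (0.0685) or TGF-β1 replicate 3 (0.0672) was left out, and that for Hbegf when untreated replicate 1 (0.0609), TGF-β1 replicate 2 (0.0719) or TGF-β1 replicate 3 (0.0512) was. This list therefore had members past the threshold in both directions, as did the Dusp, Sprouty and Spred genes.

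The list of inhibitors of receptor and Ras signaling outside the group had 11 tested genes of 17, of which 3 rose and 3 fell. Its median log2 fold change was 0.03. Spsb1, an adaptor of a ubiquitin ligase, rose by 2.07 on the log2 scale (SE 0.076, limma adjusted p = 7.75e-07). Its place on the list was set by hand, and whether Spsb1 inhibits receptor or Ras signaling in these cells was not tested. Lrig1, which lowers the level of ErbB receptors, rose by 0.75 (adjusted p = 4.54e-04), and its relative Lrig3 by 0.40 (adjusted p = 0.0115), or 0.70 with neqc. Spry3, the Sprouty gene outside the group, read 8.12 ± 0.034 in untreated cells and 7.29 ± 0.033 after TGF-β1 (SD, n = 3 each), a log2 fold change of -0.83 (adjusted p = 9.24e-05). It was thus the only Sprouty gene past the threshold, since Spry4 did not pass and Spry1 and Spry2 were not above background. Dab2ip, a GTPase activator for Ras, had a log2 fold change of -0.41 (adjusted p = 0.0153), and Errfi1, a direct inhibitor of Egfr, one of -0.32 (adjusted p = 0.0397). Without untreated replicate 1 the calls for Lrig3 (0.0507) and Dab2ip (0.0574) ended. The call for Errfi1 ended with neqc (0.0664) and with any single array left out except TGF-β1 replicate 2: untreated replicates 1 (0.0935), 2 (0.0757) and 3 (0.0854) and TGF-β1 replicates 1 (0.109) and 3 (0.111).

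Dusp genes outside the group had 12 tested genes of 19, of which 3 rose and 2 fell, with a median log2 fold change of 0.08. Dusp10, a phosphatase of JNK and p38, rose by 1.06 on the log2 scale (SE 0.097, limma adjusted p = 8.43e-05), and Dusp16, another JNK phosphatase, by 0.47 (adjusted p = 0.00287). With their probes averaged, Dusp10 rose by 0.92 and Dusp16 by 0.37. Dusp28, an atypical Dusp, rose by 1.07 (adjusted p = 2.01e-04). For 2 further atypical Dusps the log2 fold change was negative, at -1.08 for Dusp23 (SE 0.098, adjusted p = 8.06e-05; -1.70 with neqc) and -0.40 for Dusp14 (adjusted p = 0.00696).

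The JNK, p38 and ERK5 kinases and the kinases above them had 10 tested genes of 13, of which 4 rose and 0 fell, with a median log2 fold change of 0.11. Of the 4 p38 genes, Mapk13 (log2 fold change 0.44, limma adjusted p = 0.00599) and Mapk11 (0.43, adjusted p = 0.0103) rose, Mapk13 from a level above background on 1 of 3 untreated arrays (0.95 with neqc). The other 2 did not pass, with log2 fold changes of -0.21 for Mapk14 (adjusted p = 0.148) and -0.11 for Mapk12 (adjusted p = 0.363), which was named after its value was seen. Map2k3, a kinase that activates p38, had a log2 fold change of 0.37 (adjusted p = 0.0196), a call that ended when untreated replicate 1 (0.0729), untreated replicate 2 (0.0782), TGF-β1 replicate 1 (0.0595) or TGF-β1 replicate 2 (0.0787) was left out. In each of these 5 lists the share past the threshold stands beside the 34.2% of all genes tested.

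**Figure D4:**
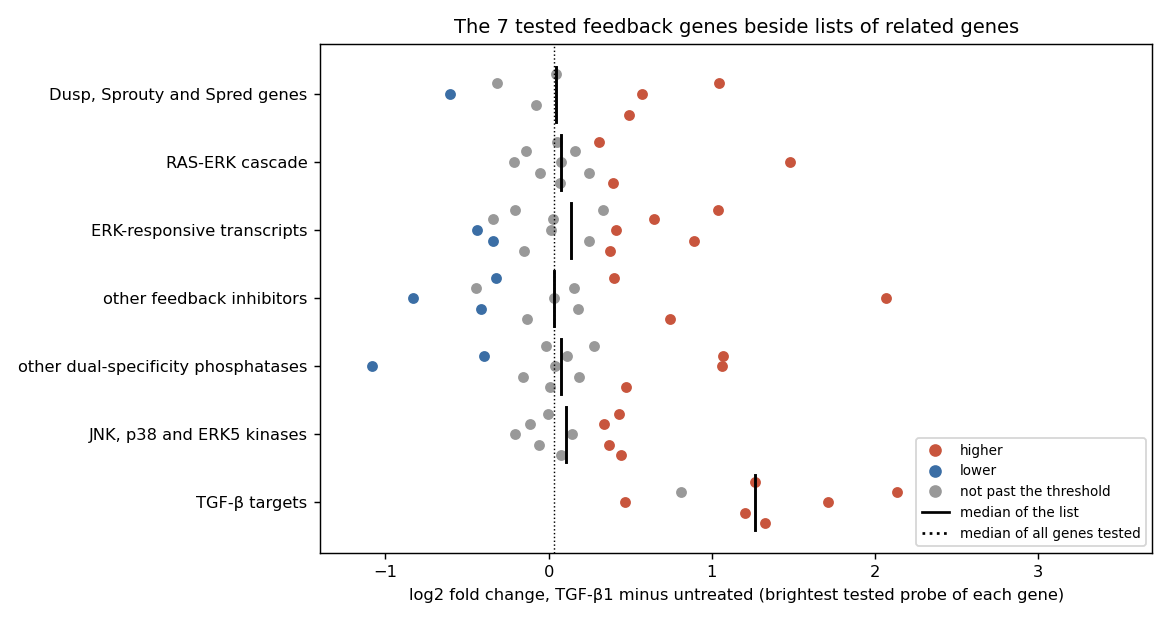
Log2 fold change, TGF-β1 minus untreated (horizontal axis), of every tested gene by its brightest probe, for the 7 tested Dusp, Sprouty and Spred genes and 6 lists of related genes, red where higher, blue where lower and gray where not past the threshold, with the list median as a bar and the median of all genes tested (0.03) as a dotted line. The feedback genes spread from -0.61 to 1.05 around a median of 0.04, whereas the TGF-β targets have a median of 1.26.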

How the data were processed

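RNA of 3 untreated and 3 TGF-β1-treated GIF-14 cultures, called biological triplicates in the methods, was hybridized by the authors to MouseRef-8 version 2 BeadChips and read in GenomeStudio. The deposited signal intensities are mean bead signals with no background subtracted (lowest 48.6), and the deposited detection p-values set each probe against the negative control beads of its array. The authors also deposited quantile-normalized intensities on a linear scale, used as an alternative. The depth of an array is the 44.3% to 45.9% of probes detected, and 3 arrays a group limit the precision.

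Here the intensities were quantile-normalized and taken to log2 in limma 3.58.1 (R 4.3.3). The platform annotation gave the gene symbols: of 25697, 23978 had 1 symbol and 1719 none. Probes that all 3 arrays of either group detected (p under 0.05) were tested with lmFit and eBayes, two-sided, with Benjamini-Hochberg adjustment over all probes tested. The brightest tested probe stood for a gene. With 3 arrays a group, the smallest p of an exact permutation test is 0.1. SAM, the test of the methods, ranks by permuted labels and was not run here, and a block for the BeadChip could not be made. The steps were tested on simulated data.

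Text named all member probes and, from each list, up to 3 genes past the threshold with the largest change in each direction and at most 2 that did not pass, with the highest signal. Members and lists were chosen with earlier results of these data known. The fibroblast, endothelial, immune, smooth muscle and neural lists hold markers of other cells: of 6 endothelial, 6 smooth muscle and 3 neural markers with a probe, 4, 4 and 1 were above background on no array. Pecam1 was at least 1.08-fold lower after TGF-β1, and Acta2 and Ret were at least 2.92-fold higher, each above background in 1 group alone. The alternatives were neqc, scaling to one mean, the authors' normalized values, no filter, a stricter one (detection p under 0.01 on all 6 arrays), one probe or the probe mean per gene, the array mean as a covariate, a robust prior with an intensity trend, a replicate block, a 1.5-fold minimum, and each array left out.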

Additional observations from a re-analysis of the deposited data

How the results depend on the processing

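Over 17 alternatives, 165 of 176 values of the 11 tested probes kept their direction and their side of the threshold. Of the others, 9 lost the threshold, 1 gained it and 1 changed sign. Several alternatives leave the fold change as it is, so its direction could not change under them. These are the filters, one probe per gene, the replicate block, the robust prior with a trend and the 1.5-fold minimum. The probe mean of a gene is counted with its brightest probe. Leaving out single arrays moved Dusp1 from -0.0344 (without untreated replicate 3) to 0.0946 (without untreated replicate 2). The second Dusp4 probe lost its call with the replicate block (adjusted p = 0.0710) and with 4 of the 6 arrays left out, and the second Dusp6 probe gained one without untreated replicate 3. The count of genes among the members past the threshold was 4, 3 with the stricter filter, which leaves Dusp2 untested, and 2 with at least 1.5-fold required. Under that requirement member probes past the threshold went from 6 to 2, all probes from 3611 to 1489, and genes of the 6 pathway lists from 31 to 15 of 65. The replicate block gave 2097 probes, 17 genes of the pathway lists, 5 member probes and 4 member genes. Arrays of the same number did not deviate together (r = -0.67, 0.07 and -0.78 for numbers 1 to 3), whereas some arrays of different numbers did (0.78 for untreated 3 with TGF-β1 1, 0.70 for untreated 1 with TGF-β1 3), so the numbers were not taken to pair the samples. With the array mean signal as a covariate, more probes passed, 5170, with 36 genes of the pathway lists and again 6 member probes. Under the block, Ptpn11, Zfp36, Hbegf, Lrig3, Dab2ip, Errfi1, Dusp14, Mapk11 and Map2k3 also did not pass. The cause of these shifts was not tested. With neqc, the log2 fold changes of both Dusp2 probes, Spry4, the second Dusp4 probe, the last Dusp6 probe, Etv4, Lrig3, Dusp23 and Mapk13 grew by over 1.5 times, and signal over background limits what can be said of Dusp2, Spry1, Spry2 and Spry4. These are transcript levels at 1 time, and neither ERK activity nor phosphatase protein was measured on the arrays. From a separate Western blot of this line, the paper reports more phosphorylated ERK after TGF-β1, at the same dose and within the same treatment time. In another blot at this dose, over the first minutes to hours, it reports an early fall in phosphorylated ERK that then recovered. How the lower Dusp6 signal relates to ERK activity in these cells was not tested, and the arrays alone do not give ERK activity.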
